A study of Mus musculus with 6 samples.

Results

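Interferon response genes are the genes that cells switch on after interferons bind their receptors. Here 33 of them were followed in the mouse myeloid line 32D, which depends on interleukin-3, in cells with an miR-9/miR-9* expression construct and in empty vector controls. Members were found by gene symbol among the probe sets of the array, and each gene was represented by its probe set with the highest mean over the 6 arrays. Of the 33 genes, 31 had a probe set of their own, out of 18194 genes with one in the whole table. Of these 31, 21 were bright enough to be tested, among 10209 genes tested in all. The empty vector group and the miR-9/9* group each hold 3 samples, carry replicate numbers 1 to 3, and differ in the construct. The medium of both groups held 10 ng/ml murine interleukin-3 and 10% serum. The labels name no further treatment, so the levels are those of cells growing without added interferon as far as the labels say. The labels do not say whether the cells of an arm are 1 clone, nor how the cultures of a replicate were separated. P-values therefore measure the spread between these samples, which may be technical.

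Type I interferons bind the receptor chains Ifnar1 and Ifnar2, and the kinases Jak1 and Tyk2 then phosphorylate Stat2 among other substrates. Stat2 joins Irf9 in a factor that binds the interferon-stimulated response element (ISRE) in the promoters of antiviral genes. Interferon-gamma acts through another receptor and the gamma-activated site (GAS), and drives Irf1, the immunity-related GTPases and the genes that cut and load peptides for MHC class I. Many of these genes also have a basal level in cells that meet no added interferon.

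The miRNA strands named by the construct and the promoters of a few members are printed here for reference. The strands are given first, as RefSeq records the mature mouse strands, with the seed (bases 2 to 8) in capitals, since the seed sets which messages a miRNA pairs with. The strands have different seeds.
miR-9 (miR-9-5p): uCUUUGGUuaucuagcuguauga
miR-9* (miR-9-3p): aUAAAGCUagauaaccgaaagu
The level of the mature miRNAs was not analysed here. Promoter windows of 300 bases, from 250 before to 50 after the start of the gene, came from RefSeq on build GRCm38.p6, and 25 of the 33 members were matched, 4 of them with more than 1 window. A gene was counted as holding a motif if any of its windows did. The windows were searched on both strands for the ISRE core (GAAA, any 2 bases, GAAA) and for the GAS core (TTC, any 3 bases, GAA), which is its own reverse complement and was counted once. The ISRE core was present in 14 of the 25 matched members (56%), against 3.99% of 27025 genes. The GAS core was present in 5 of 25 (20%), against 9.55% of those genes. Counted by window, the ISRE core was in 15 of 29 (51.7%, against 3.44% of 32851 windows) and the GAS core in 5 of 29 (17.2%, against 8.30%). The motifs are not exclusive: the windows of Oas1a and Bst2 held both. Windows of 4 members are printed, with matches in capitals and 5′ to 3′ on the strand of the gene. Ifit1 is shown as a gene near background on every array, Oas1a for holding both motifs, Irgm1 as the member with the smallest adjusted p by replicate number, and B2m as a bright member.
Ifit1, chr19:34640639-34640938, plus strand: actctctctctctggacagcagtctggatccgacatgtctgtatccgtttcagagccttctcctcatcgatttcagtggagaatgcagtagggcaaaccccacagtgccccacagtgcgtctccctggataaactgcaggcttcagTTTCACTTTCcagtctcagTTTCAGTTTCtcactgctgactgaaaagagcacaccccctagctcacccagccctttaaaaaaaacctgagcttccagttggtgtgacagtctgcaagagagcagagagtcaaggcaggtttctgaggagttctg
Oas1a, chr5:120907476-120907775, minus strand: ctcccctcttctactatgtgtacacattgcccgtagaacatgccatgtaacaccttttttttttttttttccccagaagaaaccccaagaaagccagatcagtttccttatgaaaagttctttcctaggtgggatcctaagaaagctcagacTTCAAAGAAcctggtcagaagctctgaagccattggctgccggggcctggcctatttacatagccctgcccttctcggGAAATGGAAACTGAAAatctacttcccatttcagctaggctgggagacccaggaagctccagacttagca
Irgm1, chr11:48871371-48871670, minus strand: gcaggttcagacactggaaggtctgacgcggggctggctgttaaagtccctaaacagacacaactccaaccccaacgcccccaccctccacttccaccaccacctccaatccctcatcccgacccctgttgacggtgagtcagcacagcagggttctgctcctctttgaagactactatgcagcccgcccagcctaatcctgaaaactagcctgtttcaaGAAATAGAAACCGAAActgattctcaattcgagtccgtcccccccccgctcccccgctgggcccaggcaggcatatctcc
B2m, chr2:122147437-122147736, plus strand: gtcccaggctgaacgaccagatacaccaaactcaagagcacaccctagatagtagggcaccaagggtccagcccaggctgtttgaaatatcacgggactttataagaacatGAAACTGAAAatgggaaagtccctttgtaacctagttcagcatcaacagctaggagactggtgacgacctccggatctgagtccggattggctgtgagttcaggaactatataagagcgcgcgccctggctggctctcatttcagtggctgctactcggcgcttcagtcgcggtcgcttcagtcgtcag
In Ifit1 the ISRE core matched the opposite strand at -104 and -85 from the start of the gene. In Oas1a overlapping matches began at -20 and -14, and a GAS match at -98. In Irgm1 overlapping ISRE matches began at -30 and -24, and in B2m 1 match began at -139. Psmb9 and Tap1 are divergent neighbours whose windows share 275 bases, and neither motif was found in that stretch. A match is a run of letters and not a measured binding site.

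The values are MAS5 signals, 1 per probe set and array, a brightness on a linear scale whose mean without the lowest and highest 2% is 100. Median signals over all probe sets ran from 12.0 to 15.2, and 0 arrays held the same values as another. A probe set was tested if its mean log2(signal + 16) reached the median of all probe sets, which corresponds to a signal of 12.9. A log2 fold change is the mean log2(signal + 16) with miR-9/9* minus that with the empty vector, a scale on which changes of dim genes come out too small. Signals carry the SD over the n = 3 arrays of an arm, whose number limits the precision. Of 8 markers of the myeloid progenitor line, 6 were above the filter, Csf2rb, Myb and Prtn3 among them, while the elastase gene Elane and Cd34 were below it. No gene of 4 lymphoid and 4 fibroblast markers with a probe set reached the filter.

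Near background lay 10 of the 31 measured members, 32.3%, against 43.9% of all genes. In 9 of the 10, every array stayed under the filter signal. The nucleic acid sensor Zbp1 ran from 0.753 to 7.53. The translation inhibitors Ifit1 and Ifit3 ran from 1.15 to 9.70 and from 2.12 to 11.4, and the oligoadenylate synthetase-like gene Oasl2 from 0.295 to 4.17. The Mx proteins block viral replication, and the guanylate-binding proteins act on the vacuoles of pathogens. Mx2 ran from 1.14 to 2.01, Gbp2 from 2.88 to 4.03 and Gbp3 from 6.40 to 12.9. The receptor transporter gene Rtp4 ran from 0.665 to 5.78. Only Mx1 crossed the filter signal, running from 7.35 to 15.2, with 4 of 6 arrays under the filter signal. The arms of the double-stranded RNA sensor Ifih1 did not overlap, at 8.03 to 10.6 with the empty vector and 3.24 to 6.33 with miR-9/9*, but a probe set this dim was not tested. Among the tested members, Irf7, Oas2 and Rsad2 had at least 1 array under the filter signal. Ddx58, Rsad2, Parp14, Xaf1, Iigp1 and Tap1 each had at least 1 other probe set below the filter. Isg15 and Ifi44 had no probe set of a single symbol and were not analysed. Of the 6 members near background whose promoter window was matched, 5 held the ISRE core, as did 8 of 17 tested members.

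**Figure D1:**
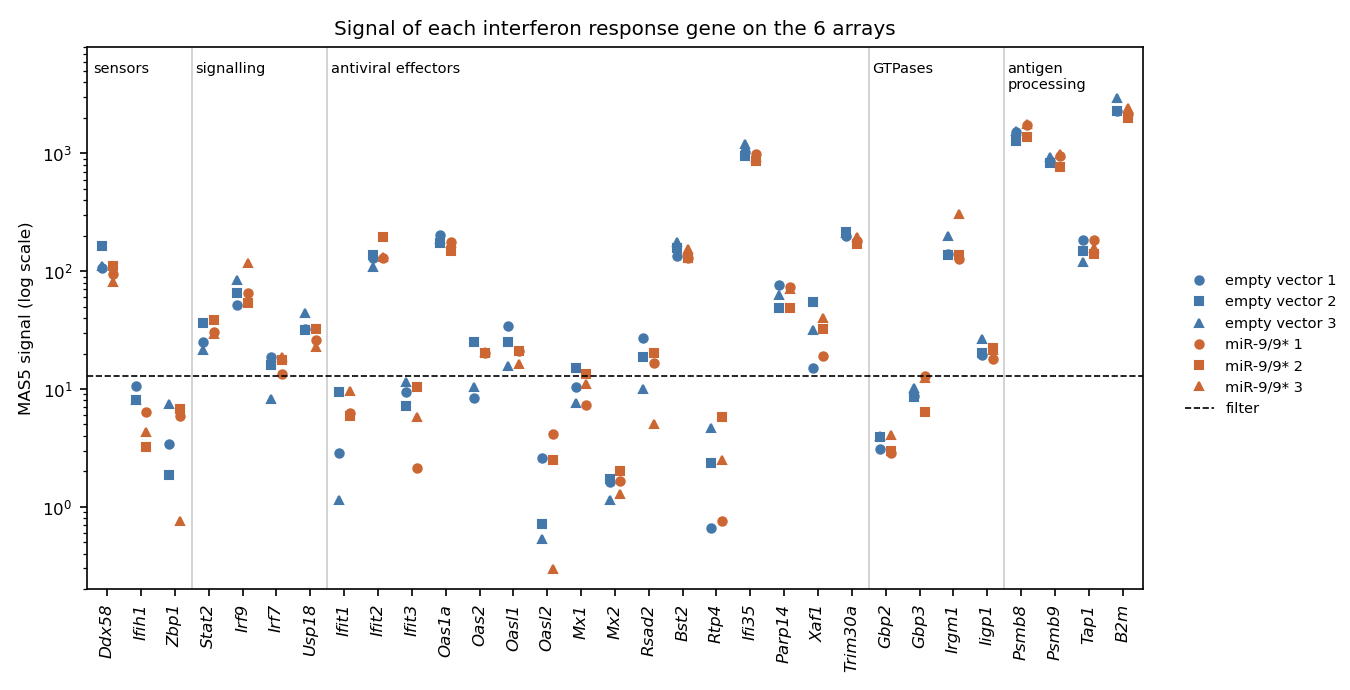
MAS5 signal on a log axis for the 31 measured members, grouped by role, with 1 point per array (blue, empty vector; orange, miR-9/9*; circle, square and triangle for replicate numbers 1, 2 and 3) and the filter signal of 12.9 as a dashed line. The immunoproteasome genes, Ifi35 and B2m lie far above the line on every array, and 10 members have a mean below it.

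Between the arms, the interferon response genes showed no change that passed the test. With limma and no pairing of the arrays, 0 of 21 members were called at an adjusted p under 0.05, against 0.0588% of all genes tested (0.0196% higher and 0.0392% lower), and 0 members had an unadjusted p under 0.05, against 4.61% of all genes. The smallest unadjusted p was 0.109, for Ddx58. The median log2 fold change of the 21 members was -0.04, against 0.01 for all genes, with 10 members above 0 and 11 below. Single members lay between -0.33 (Ddx58) and 0.28 (Oas2), and their 95% intervals together spanned -0.80 to 0.85. In bulk samples, fewer cells of a type and less RNA per cell cannot be told apart.

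The replicate numbers of the arms moved together, so the comparison was also made within them, with the number as a block. With the block limma again called 0 of 21 members, against 3.00% of all genes, and 5 members had an unadjusted p under 0.05 (23.8%, against 17.0% of all genes). These were Ddx58, Ifit2, Ifi35, Psmb8 and B2m, and the smallest adjusted p among the members was 0.14. The 95% intervals with the block spanned -0.62 to 0.70. Within numbers, 3 tested members were higher with miR-9/9* in 3 of 3 numbers (Stat2, Ifit2 and Psmb8). Of the tested members, 6 were lower in 3 of 3 (Ddx58, Oas1a, Bst2, Ifi35, Trim30a and B2m). Over all genes the same patterns held 21.0% and 18.1% of those tested. The arms failed to overlap in 1 tested member, Trim30a, which was lower, against 9.83% of all genes in either direction and 4.74% lower.

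Of the sensors, Ddx58, which encodes the viral RNA sensor RIG-I, was the only one tested. Its signals were 106, 164 and 109.7 in empty vector replicates 1, 2 and 3 and 94.8, 112 and 81.6 with miR-9/9*. Each miR-9/9* array was below its same-numbered partner, yet the arms overlapped, since empty vector replicates 1 and 3 were below miR-9/9* replicate 2. Mean signals were 126 ± 32.6 and 96.0 ± 15.1, and the log2 fold change was -0.33 (SE 0.186, limma adjusted p = 0.999, and 0.14 with the block). Another probe set of Ddx58 that passed the filter gave 0.08.

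The signalling members were Stat2, Irf9, Irf7 and Usp18, and none was called. Irf9, the DNA-binding partner of Stat2, had signals of 52.1, 65.6 and 83.5 with the empty vector and 65.8, 53.3 and 118 with miR-9/9*. Both number 3 arrays were the highest of their arm, and the arms overlapped (log2 fold change 0.15, SE 0.254). Stat2 ran from 21.4 to 36.5 with the empty vector and from 29.2 to 38.7 with miR-9/9*, and its log2 fold change of 0.17 turned to -0.05 when its probe sets were averaged. Irf7, the factor that amplifies interferon production, ran from 8.26 to 18.6 and from 13.4 to 18.9. Usp18, which removes ISG15 from proteins and dampens the receptor, ran from 31.8 to 43.9 and from 22.8 to 32.4. Its log2 fold change was -0.27 (SE 0.16).

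Of 18 antiviral effectors, 16 were measured and 10 tested, with a median log2 fold change of -0.16, 3 above 0 and 7 below. None was called in either fit. Ifit2, which binds viral RNA and restricts translation, read 129, 137 and 108 with the empty vector and 131, 195 and 133 with miR-9/9*. The high value of miR-9/9* replicate 2 stood apart from the other 5 arrays, which lay between 108 and 137. The log2 fold change was 0.25 (SE 0.173), with an unadjusted p of 0.187 and of 0.0405 with the block.

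The RNA-sensing enzyme Oas1a, an oligoadenylate synthetase, read 203, 172 and 188 with the empty vector and 178, 149 and 173 with miR-9/9*. It was lower in each number by 0.11 to 0.19 on the log2 scale, but the arms overlapped (log2 fold change -0.16, SE 0.126). Among its relatives, Oas2 ran from 8.47 to 24.9 with the empty vector and from 20.1 to 20.6 with miR-9/9*, and Oasl1 ran from 15.5 to 34.5 and from 16.4 to 20.9. For Oas2 the log2 fold change of 0.28 came with an SE of 0.204, and 2 empty vector arrays lay under the filter signal.

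Bst2 encodes tetherin, which holds budding virus at the cell surface. It read 135, 156 and 178 with the empty vector and 130.2, 130.0 and 154 with miR-9/9*. Only miR-9/9* replicates 1 and 2 lay below every empty vector array (log2 fold change -0.16, SE 0.141). Trim30a, a restraint on Toll-like receptor signalling, read 199.7, 213 and 210.2 against 179.6, 171 and 194. All miR-9/9* arrays lay below all empty vector arrays, with a log2 fold change of -0.18 (SE 0.113, limma adjusted p = 0.999, and 0.294 with the block). Its other probe set above the filter gave -0.28.

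Ifi35, a leucine zipper protein induced by interferon, read 1023, 957 and 1194 with the empty vector and 985, 864 and 931 with miR-9/9*. The arms overlapped, and the log2 fold change was -0.18 (SE 0.118). The probe sets of Ifi35 disagreed, since the other pair above the filter gave 0.18 and 0.06, and their average with the first gave 0.02. The mean signals of that pair were also lower, at 179 and 172, against 992 for the first. Rsad2, the antiviral enzyme viperin, ran from 9.91 to 27.1 with the empty vector and from 5.04 to 20.1 with miR-9/9*. Parp14, an ADP-ribosyltransferase, ran from 48.6 to 75.7 and from 48.3 to 74.0, with a log2 fold change of 0.03. Xaf1, a pro-apoptotic partner of XIAP, read 15.1, 54.6 and 31.5 with the empty vector and 19.1, 32.5 and 39.9 with miR-9/9*, so number 1 was the lowest in both arms. The other probe set of Xaf1 was below the filter, at 7.89 to 14.4, and number 1 was the lowest in neither arm.

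Of the 4 GTPases, Irgm1 and Iigp1 were tested and Gbp2 and Gbp3 were near background. Irgm1, a regulator of the immunity-related GTPases and of autophagy, read 139, 137 and 198 with the empty vector and 127, 136 and 308 with miR-9/9*. Number 3 was high in both arms and higher with miR-9/9*, while numbers 1 and 2 lay together between 127 and 139. The differences within numbers 1, 2 and 3 were -0.11, 0.00 and 0.60, and the log2 fold change of 0.16 (SE 0.301) was -0.06 without number 3. Iigp1, an effector GTPase of the same family, ran from 19.4 to 26.5 with the empty vector and from 17.9 to 22.1 with miR-9/9*.

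All 4 genes of antigen processing were tested and none was called. Psmb8, a catalytic subunit of the immunoproteasome, read 1517, 1279.7 and 1548 with the empty vector and 1758, 1373 and 1787 with miR-9/9*. It was higher with miR-9/9* in each number, by 0.10 to 0.21 on the log2 scale, and number 2 was the lowest in both arms. The log2 fold change was 0.17 (SE 0.138, limma adjusted p = 0.999, and 0.254 with the block), and another probe set gave -0.17. Its partner subunit Psmb9 read 862, 833 and 936 against 943, 759 and 982, with a log2 fold change of 0.02.

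Tap1, a chain of the peptide transporter into the endoplasmic reticulum, read 186, 149 and 119 with the empty vector and 184, 139.9 and 157 with miR-9/9*. The arms overlapped, with a log2 fold change of 0.09 (SE 0.173). B2m, the light chain of MHC class I, read 2281, 2301 and 2958 against 2155, 1999.8 and 2440.4. Number 3 was the highest in both arms, and each miR-9/9* array lay below its partner, by 0.08, 0.20 and 0.28 on the log2 scale. The log2 fold change was -0.19 (SE 0.138) with an unadjusted p of 0.213, and of 0.0403 with the block. The other probe set of B2m showed the same order within numbers, with a log2 fold change of -0.15.

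**Figure D2:**
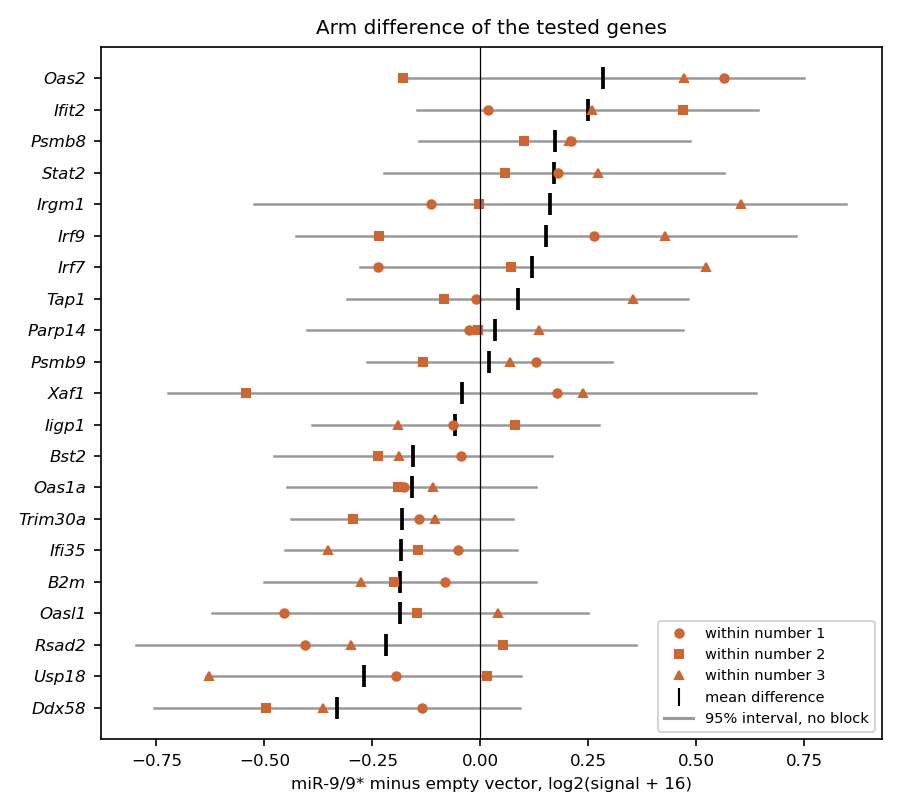
Difference in log2(signal + 16), miR-9/9* minus empty vector, for the 21 tested members, with a point for each replicate number, a tick for the mean and a bar for the 95% interval without the block. Every bar crosses 0, and means run from -0.33 for Ddx58 to 0.28 for Oas2.

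Some members differed between replicate numbers, at about the rate of all genes. With the arm taken out, limma's F-test over the 3 numbers called 5 of 21 members at an adjusted p under 0.05, which is 23.8% and close to the 24.3% of all genes tested. An unadjusted p under 0.05 was found for 11 members (52.4%, against 40.8% of all genes). The called members were Irgm1 (adjusted p = 0.0107), Psmb8 (0.0358), Irf9 (0.0368), Xaf1 (0.0421) and Ddx58 (0.0499). The range of the 3 numbers' means, in log2 units, had a median of 0.37 over the members, against 0.29 over all genes. It ran from 0.09, for Usp18 and Trim30a, to 0.83 for Xaf1.

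The called members did not share 1 pattern. Irgm1 was higher in number 3 than in number 1 by 0.82 and than in number 2 by 0.79 (adjusted p = 0.0125 and 0.0148 over genes and contrasts). Irf9 was higher in number 3 by 0.63 and 0.62 (adjusted p = 0.0419 and 0.044). Xaf1 was higher in number 2 than in number 1 by 0.83 (adjusted p = 0.0351). Ddx58 was lower in number 3 than in number 2 by 0.45 (adjusted p = 0.0451). Psmb8 was lower in number 2 than in number 1 by 0.30 and higher in number 3 than in number 2 by 0.32 (adjusted p = 0.0489 and 0.0367). Over all genes, 13.5% differed between numbers 3 and 1, 20.3% between 3 and 2, and 7.54% between 2 and 1.

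These calls had limits. With no filter on dim probe sets, or with no variance trend, limma called 0 members by number (10 and 9 with an unadjusted p under 0.05), and Irgm1 then had an adjusted p of 0.053 and 0.0589. Without number 3, 2 members were called, and Irgm1, Irf9 and Ddx58 lost their calls (adjusted p = 0.891, 0.98 and 0.0923). Without number 2, Ddx58 and Psmb8 lost theirs (0.746 and 0.882), and without number 1, Xaf1 did (0.548). The call of Ddx58 held under 2 of 11 alternatives, those of Irgm1 and Irf9 under 8 of 11 each, that of Psmb8 under 7 of 11 and that of Xaf1 under 6 of the 10 in which it was tested. Median signals were lower in the number 3 arrays, at 12.0 and 12.9, than in the other 4, at 14.0 to 15.2. With arrays centred on their median, or after quantile normalization, Irgm1, Irf9 and Xaf1 passed and Ddx58 did not (adjusted p = 0.111 and 0.0927), Psmb8 passed only with centring (0.0248 against 0.0524), and the differences between numbers given above kept their direction.

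Markers of the line and of other cells also differed between numbers. Of the 6 tested progenitor markers of the line, 4 were called by number in limma (66.7%, against 24.3% of all genes): Mpo, Prtn3, Ctsg and Csf2rb, with ranges of the numbers' means of 2.41, 1.28, 2.11 and 1.12 in log2 units. Mpo and Ctsg were highest in number 1 in both arms, and Csf2rb was lowest in number 2 in both. Between the arms, the blocked fit called 0 of these 6 markers higher and 1 lower, against 1.55% and 1.45% of all genes. The marker called was Csf2rb (log2 fold change -0.35, limma adjusted p = 0.999, and 0.0363 with the block). The arms of Il3ra did not overlap and it was lower with miR-9/9*, but it was not called (limma adjusted p = 0.184 with the block). The summed signal of 6 macrophage markers, 4 of them above the filter, ran from 587 to 662 with the empty vector and from 441 to 830 with miR-9/9*, and the tissue macrophage markers C1qa and C1qb were at 7.30 or below on every array. Of the 4 tested, 3 were called by number, in different orders: by the mean over both arms, Cd14, a coreceptor for bacterial lipid, was highest in number 3, Cd68 in number 2 and Adgre1 in number 1. Csf1r was not called. The summed signal of 5 plasmacytoid dendritic cell markers, from a cell type that makes interferon, ran from 258 to 333 and from 295 to 449. Most of this sum was Tcf4, which ran from 204 to 281 with the empty vector and from 252 to 390 with miR-9/9*. Tcf4 was higher with miR-9/9* in each number (limma adjusted p = 0.999, and 0.0379 with the block). It was also called by number (adjusted p = 0.0106 in limma's F-test). The defining marker Siglech, with Ccr9 and Ly6d, was near background. The part of these markers and cell types in the values of the members was not tested.

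**Figure D3:**
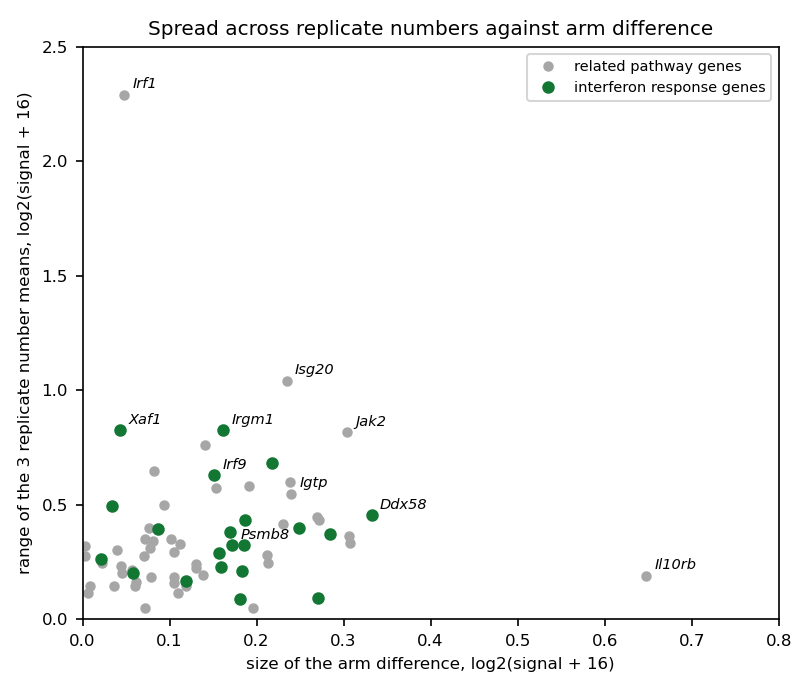
Range of the replicate numbers' means (log2 units) against the size of the difference between arms for tested members (green) and related pathway genes (grey). A range over 3 means tends to be wider than a difference between a pair of means. The axes are therefore not to be set against each other. Xaf1 and Irgm1 have the widest ranges among the members, and Usp18 and Trim30a the narrowest.

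Related genes of the pathway, which are not members, were read from a list of 69 interferons, receptors, kinases, factors, further induced genes and antigen processing genes. Of these, 63 had a probe set and 48 were tested. The interferons Ifnb1, Ifng, Ifna2 and Ifna4 stayed at 14.5 or below on every array and under the filter. The adaptor Tmem173 had no probe set of a single symbol. Without the block limma called 0 of 48 (1 with an unadjusted p under 0.05), and with the block it called 0 higher and 2 lower, Il10rb and Tapbp, against 1.55% of all genes higher and 1.45% lower.

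Il10rb, a receptor chain shared by interleukin-10 and interferon-lambda, fell in the blocked fit. It read 117, 115 and 119 with the empty vector and 77.8, 57.2 and 72.9 with miR-9/9*, so the arms lay far apart. Mean signals were 117 ± 2.09 and 69.3 ± 10.8, and the log2 fold change was -0.65 (limma adjusted p = 0.365, and 0.0149 with the block). This blocked call held under 9 of 11 alternatives and ended with no filter (0.0814) and with no variance trend (0.0713). Tapbp, or tapasin, which links Tap1 to MHC class I, read 481, 464 and 367 against 374, 369 and 305. Its log2 fold change was -0.31 (limma adjusted p = 0.999, and 0.0442 with the block), and it passed in the blocked fit under 4 of 11 alternatives, with adjusted p from 0.0365 to 0.499. The call of Tapbp rested on the chosen probe set. With its probe sets averaged the log2 fold change was -0.14 (limma adjusted p = 0.499 with the block).

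By replicate number, limma called 12 of the 48 related genes, 25%, against 24.3% of all genes. By the mean over both arms, Irf1, Irf3, Herc6 and Igtp were highest in number 3, and Jak2 in number 1. Jak1, Irf5, Isg20, Uba7, Gbp7, Pml and Tapbp were lowest in number 3. With probe sets averaged, the calls of Irf3, Herc6 and Irf5 over the numbers were lost (limma adjusted p = 0.776, 0.284 and 0.164). The call held under 4 of 11 alternatives for Irf5, 5 for Pml and 7 each for Jak1, Herc6 and Gbp7. It held under 8 for Irf3 and all 11 for Jak2. Tapbp was lower in number 3 than in number 1 by 0.33 (limma adjusted p = 0.0289), and its call over the numbers held under 7 of 11 alternatives. The factor Irf1, a direct target of interferon-gamma signalling that drives antigen processing genes, was chosen for description after its values were seen. It read 123, 126 and 443 with the empty vector and 86.7, 115 and 733 with miR-9/9*, so number 3 lay above all other arrays in both arms. It was higher in number 3 than in number 1 by 2.29 and than in number 2 by 2.10 on the log2 scale (adjusted p = 0.000676 and 0.00106), and 1 of its promoter windows held a GAS core, at -90, while the other held neither motif. Without number 3 the remaining numbers did not pass (adjusted p = 0.409). Igtp, an immunity-related GTPase like Irgm1 and also picked afterwards, read 95.8, 126 and 159 against 138, 124 and 195, and was higher in number 3 than in number 1 by 0.55 (adjusted p = 0.0259). Its call over the numbers was lost with no filter (0.0871), with no variance trend (0.0792) and without number 3 (0.705).

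**Figure D4:**
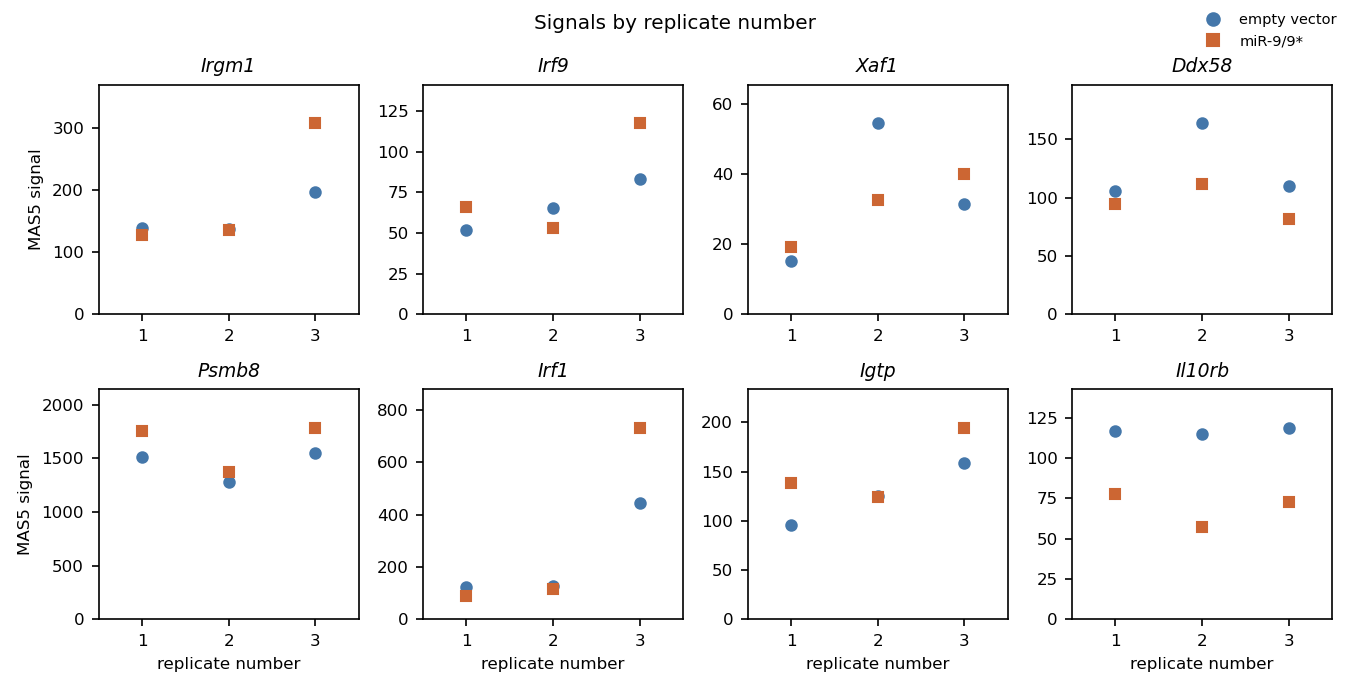
MAS5 signal from 0 on a linear axis by replicate number for Irgm1, Irf9, Xaf1, Ddx58, Psmb8, Irf1, Igtp and Il10rb, with 1 point per array (blue, empty vector; orange, miR-9/9*). Number 3 is high in both arms for Irgm1, Irf9, Irf1 and Igtp, while Il10rb is separated by arm in every number.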

How the data were processed

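Messenger RNA of 32D cells was measured on 6 one-colour Affymetrix arrays, and groups and replicate numbers came from the sample titles. The deposited values are MAS5 signal intensities on a linear scale, per the submitters' processing notes, which give no version. The genome build of the array design is not given in the sources used here. Gene names came from a platform annotation of 2016: of 45101 probe sets, 64 were controls, 34958 carried 1 symbol, 932 several and 9211 none, and 34754 were matched to RefSeq genes of GRCm38.p6, with 0 symbols changed. Per gene the probe set with the highest mean was kept.

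Signals were transformed to log2(signal + 16) with no further normalization, and genes with a mean below the median of all probe sets (4.86) were left out. The arms were compared two-sided in R 4.3.3 by limma 3.58.1, using lmFit and eBayes with its trend option, with Benjamini-Hochberg adjustment over all genes tested and a threshold of 0.05. The unblocked fit has 4 residual degrees of freedom, and a fit blocked on replicate number has 2. The labels give only the numbers, so pairing was checked in the data. Deviations from the arm means correlated at 0.492, 0.617 and 0.683 between same-numbered arrays, above the limit of 0.1, and at -0.04 or lower between others. The deviations of an arm cancel out for each gene. Positive values between same-numbered arrays therefore make the others negative on balance, and these are not separate support for pairing. The replicate number itself was tested with limma's F-test in the blocked model, with contrasts adjusted over genes and contrasts. The procedure was tested on simulated data.

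Every member is named, with its value on each array if called in any fit or among the 10 highest means, and otherwise by its range. Related genes are named if called between the arms or by replicate number, and some others are named as well. Irf1, Igtp, Isg20, Uba7 and Jak2 were picked for description after their values were seen. Members and lists were chosen with earlier results of these data known. Isg15 and Ifi44 were not analysed here. Alternatives were other pseudocounts, filters, normalizations, a variance model without trend, averaged probe sets, and leaving out arrays or numbers.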

Additional observations from a re-analysis of the deposited data

How the results depend on the processing

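In limma 0 members were called between the arms under all 26 alternatives run (0 or 1 with an unadjusted p under 0.05 without the block, 1 to 6 with it), and the median log2 fold change of the members stayed between -0.12 and 0.05. The count of all genes called between the arms did not hold: it was 6, and in limma 0 with no filter (893 with an unadjusted p under 0.05), 3 with no variance trend, and from 0 (leaving out empty vector replicate 1, 397 at an unadjusted p under 0.05) to 7 (without miR-9/9* replicate 3) when an array was left out. With the replicate block it was 306, then 279 and 295 with pseudocounts of 1 and 64, 67 with no filter, 328 with a stricter filter, 275 after quantile normalization, 271 with arrays centred on their median, 38 with no variance trend, 232 with probe sets averaged, and from 166 without number 1 to 365 without number 3 (339 without number 2).

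Related genes called with the block numbered 2, and also 2 with a pseudocount of 1 or 64, with the stricter filter and with centred arrays. They numbered 1 after quantile normalization and with probe sets averaged, 0 in limma with no filter and with no variance trend (7 and 6 with an unadjusted p under 0.05), and from 1 without number 1 to 3 without number 2 (2 without number 3). Without number 2 these included Jak2 and Isg20, both higher, and without number 3 Jak1, lower. Genes called by replicate number went from 2484 to 1071 with no filter, 881 with no variance trend, and from 796 without number 3 to 2451 without number 1. Members called by number went from 5 to 3 with a pseudocount of 64, 0 with no filter and 0 with no variance trend, and from 2 without number 3 to 5 without number 1. They numbered 4 after quantile normalization, and 6 with arrays centred on their median and with probe sets averaged.

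Log2 fold changes that turned sign passed in neither setting, and the cause was not tested. With probe sets averaged, Stat2 was at -0.048 and Ifi35 at 0.018, with and without the block. With the block and without number 3, Irf7 was at -0.083, Parp14 -0.017, Irgm1 -0.059, Iigp1 0.0080, Psmb9 -0.0023, Tap1 -0.047 and Irf1 -0.28. Without number 2 Xaf1 was at 0.21, and without number 1 Psmb9 was at -0.032. With 1 array left out, Irf9 ran from -0.13 to 0.35, Irf7 from -0.031 to 0.22, Rsad2 from -0.41 to 0.017, Parp14 from -0.10 to 0.19, Xaf1 from -0.34 to 0.25, Irgm1 from -0.22 to 0.37, Iigp1 from -0.11 to 0.025, Psmb9 from -0.049 to 0.13 and Tap1 from -0.057 to 0.23. Among related genes, Irf1 ran from -0.85 to 0.62, Irf3 from -0.22 to 0.072, Isg20 from -0.051 to 0.70, Herc6 from -0.36 to 0.044, Uba7 from -0.11 to 0.38 and Gbp7 from -0.19 to 0.033. Signals under 12.9 limit what 10 members can show.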

Other observations

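Other genes of the pathway, picked after their values were seen, varied by replicate number in differing orders. Isg20, an exonuclease induced by interferon, read 121, 324 and 103 in empty vector replicates 1, 2 and 3 and 172, 251 and 164 with miR-9/9*, so number 2 was the highest in both arms, and it was lower in number 3 than in number 2 by 1.04 on the log2 scale (limma adjusted p = 0.0103). Uba7, the activating enzyme for ISG15, read 484, 682 and 336 against 568, 623 and 425, and was also lower in number 3 than in number 2, by 0.76 (limma adjusted p = 0.00411). Jak2, the kinase of the interleukin-3 receptor and of a chain of the interferon-gamma receptor, read 493, 318 and 376 against 681, 326 and 509, and was lower in number 2 than in number 1 by 0.82 (limma adjusted p = 0.0031). The call of Isg20 over the numbers was lost with no filter on dim probe sets (limma adjusted p = 0.0564), with no variance trend (0.0606) and without number 2 (0.433), and that of Uba7 without number 3 (0.0759).

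The membrane proteins Ifitm1, Ifitm2 and Ifitm3, which restrict virus entry, were far above the filter signal on every array. Ifitm1 ran from 4960 to 6404 with the empty vector and from 4976 to 5691 with miR-9/9*, with a log2 fold change of 0.00, and Ifitm3 ran from 4214 to 5190 and from 4740 to 4802, with 0.04. Neither was called between the arms, nor by number, in limma.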
